A study of Mus musculus with 12 samples.

Results

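Transcript levels of mouse embryonic stem cells that lack a regulatory region of Tcf15 were compared between the naive state (0 h) and 12 h of induction to epiblast-like cells, over all genes. The comparison rests on 4 of the 12 libraries of the series, chosen by sample title and table column: 2 libraries of the deleted line at 0 h and 2 at 12 h. All cells belong to E14Tg2a, an established mouse embryonic stem cell line of strain 129/Ola. The deleted line, delta 0.7 in the labels, carries on both alleles a deletion of chr2:152177049-152177722 (mm10, 674 bases), downstream of Tcf15 (chr2:152143561-152149097, plus strand). Wild-type E14Tg2a cells sampled at 0 h and 12 h, with 2 libraries each, gave the reference, and the 24 h libraries of both genotypes entered the fit. At 0 h both genotypes were in serum-free N2B27 with 2i and LIF. The 12 h cells had been moved to fibronectin-coated plates and N2B27 that held bFGF, Activin and KOSR (knockout serum replacement). The column names of the deleted line carry a single clone, so the deletion and the clone cannot be told apart. Whether the 2 replicates of a group came from separate cultures is not in the labels; p-values therefore measure only how far these libraries spread, which may be technical.

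In 2i and LIF an inhibitor of MEK holds back the ERK pathway, an inhibitor of GSK3 lets beta-catenin act on WNT target genes, and LIF signals through STAT3; together these keep stem cells in the naive state of the preimplantation epiblast. When the inhibitors and LIF are replaced by FGF and Activin, cells are known to lose naive factors and to gain factors of the formative, early postimplantation epiblast together with the enzymes that write new DNA methylation. Tcf15 encodes a basic helix-loop-helix factor that pairs with E proteins, is held back by Id proteins and is known for marking stem cells primed to differentiate.

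The libraries were not alike in ways the groups do not explain. Replicate 1 of the deleted line at 0 h stood apart: ribosomal protein genes took 12.4% of its reads, against 6.94% in replicate 2 and 6.02% and 6.01% at 12 h, and rRNA-like genes took 7.83%, against 0.253% to 1.22% in the other 3 libraries. The wild-type replicate 1 library of 0 h was also high in ribosomal protein reads (10.5%, against 6.66% in its partner). Mitochondrial mRNA took 0.410% and 0.549% of reads in the replicate 1 libraries of 0 h and 12 h and 2.22% and 1.67% in the replicate 2 libraries. Replicates of the deleted line differed with an SD of 0.83 log2 units over genes at 0 h and 0.31 at 12 h. Depth, recovered from the values, was 11881198 and 17571255 reads at 0 h and 12046463 and 13236095 reads at 12 h. The effective library size to which the deposited values are scaled was 75.5% and 99.97% of these reads at 0 h. At 12 h it was 103.5% and 104.1%. The values of 0 h replicate 1 are thus higher than its reads alone would give.

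Tcf15 itself was low at both times. It stood at 2.16 and 1.05 FPKM (fragments per kilobase of transcript, relative to effective library size) in replicates 1 and 2 at 0 h. At 12 h it stood at 1.06 and 1.04 FPKM, so the 12 h libraries lay at the lower 0 h value. Wild-type cells stood at 9.16 and 3.45 FPKM at 0 h and at 57.1 and 28.8 FPKM at 12 h, without overlap with the deleted line at either time. On the log2(FPKM + 1) scale, on which all changes here are given and which understates the changes of low genes, the change of the deleted line was −0.31 ± 0.47 (SE; limma adjusted p = 0.71), and it was 0.0032 without 0 h replicate 1. Tcf15 rose in wild type by 2.63 log2 units (limma adjusted p = 0.017). The change differed between genotypes by −2.94 (95% interval −4.46 to −1.43; limma unadjusted p = 0.0017, adjusted p = 1).

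With 12 h of induction 497 genes rose and 482 fell in the deleted line, of 13981 genes tested (7.00% called in either direction, 3.55% rising and 3.45% falling; limma, adjusted p under 0.05). The median change of all genes was −0.03 log2 units. Among the called genes 399 rose and 377 fell by at least 1 log2 unit, and 19 rose and 19 fell by at least 3. Protein-coding genes made up 418 of the rises and 417 of the falls; long intergenic or antisense RNAs made up 42 and 41. The libraries of 0 h and 12 h did not overlap for any of the 979 called genes. Over all genes tested, that separation was met by 24.4% with the 12 h libraries higher and 24.3% with them lower. A fit on the 4 libraries of the deleted line alone called 0 genes (lowest limma adjusted p = 0.066; 1927 genes at an unadjusted p under 0.05), so the calls use the spread of all 12 libraries. Without 0 h replicate 1 the counts were 423 rises and 637 falls (7.58% called, 3.03% rising and 4.56% falling), and 331 rises and 339 falls were called both ways; 82 rises and 62 falls were called without each of the 4 libraries in turn. Without 0 h replicate 2, which leaves at 0 h only the library that stood apart, 1956 genes rose and 2566 fell (32.3% called in either direction). Beside a list median that moved by over 1.5 times without a 0 h library, the medians without replicate 1 and without replicate 2 are given in that order.

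**Figure D1:**
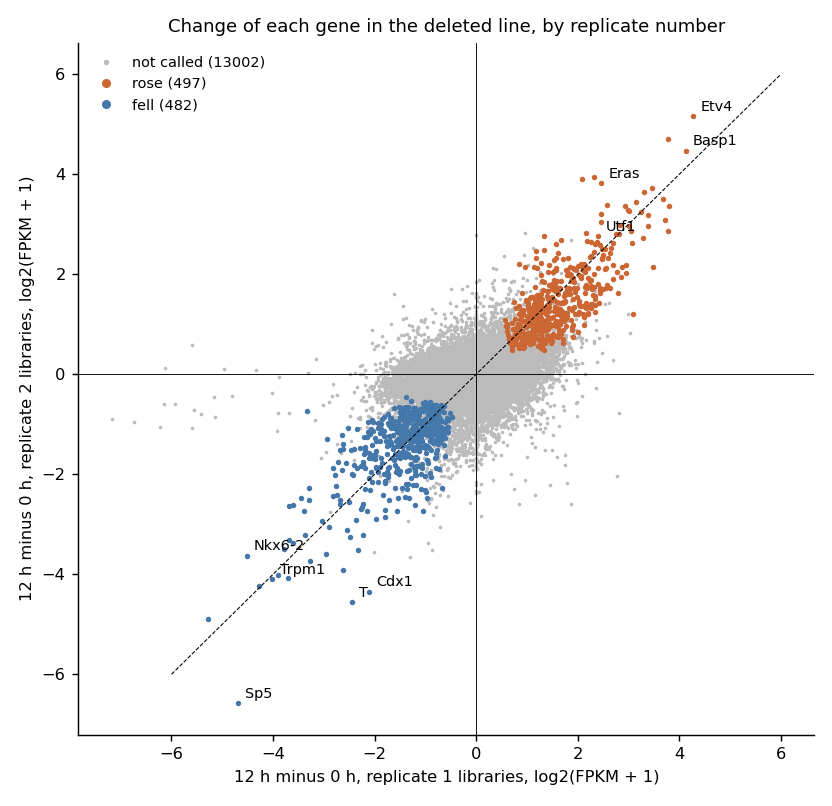
Change from 0 h to 12 h of each of 13981 genes in the deleted line on the log2(FPKM + 1) scale, computed from the replicate 1 libraries (x axis) and from the replicate 2 libraries (y axis), with the 497 rises, the 482 falls and the genes not called in separate colours and the line of equal change dashed; the number shared by 2 libraries is not taken as a pairing. Etv4 lies farthest up and Sp5 farthest down, every called gene has the same sign in both, and T and Cdx1 fell more in replicate 2.

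The largest rise was that of Etv4, which encodes an ETS transcription factor of the FGF pathway. Etv4 (ENSMUSG00000017724, chr11:101769742-101785371, minus strand) stood at 1.22 and 0.367 FPKM at 0 h and at 41.8 and 47.9 FPKM at 12 h. Both 12 h libraries were far above both 0 h libraries, a change of 4.71 ± 0.42 log2 units (SE; limma adjusted p = 6.1e-04). Basp1, which encodes a membrane-attached protein that binds actin-regulating lipids, stood at 7.24 and 4.65 FPKM and then at 143 and 125 FPKM (4.30 ± 0.31). S100a6, a calcium-binding protein gene, stood at 1.30 and 0.541 FPKM and then at 30.4 and 39.3 FPKM (4.24 ± 0.33). These 3 genes were at a few FPKM or less at 0 h and among the clearly expressed genes at 12 h. Their libraries did not overlap between the times, which the rule that chose them requires.

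The next of the 15 largest rises, by a rule that asks for at least 5 FPKM at the higher time, rose by 3.14 to 3.60 log2 units. Exoc3l, an exocyst-like gene, stood at 1.97 and 2.99 FPKM and then at 37.0 and 44.5 FPKM. Zfp423, which encodes a zinc finger transcription factor, stood at 0.219 and 0.0812 FPKM and then at 12.4 and 13.3 FPKM. Myrf, which encodes a membrane-bound transcription factor known from myelin-forming cells, stood at 0.130 and 0.226 FPKM and then at 14.6 and 11.6 FPKM. Zfp423 and Myrf thus began well under 1 FPKM. Enpp3, a surface nucleotide pyrophosphatase gene, stood at 1.19 and 1.44 FPKM and then at 29.1 and 16.7 FPKM, and Prss50, a protease-family gene of the testis, at 0.0766 and 0.117 FPKM and then at 8.48 and 11.1 FPKM. Halr1, a long noncoding RNA gene beside the Hoxa cluster, was listed at 0 in both 0 h libraries and stood at 9.40 and 8.13 FPKM at 12 h. Eras, which encodes a Ras-like GTPase of stem cells, stood at 6.32 and 1.59 FPKM and then at 39.3 and 35.6 FPKM. Of these 15 genes Eras was the one whose call was lost without a 12 h library (limma adjusted p = 0.087 without replicate 1 and 0.067 without replicate 2). Dnmt3l, Itga3, Peg10, Dusp4 and Spry4, described with their groups, complete the 15.

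The largest fall was that of Sp5, which encodes a zinc finger factor known as a direct target of WNT signalling. Sp5 (ENSMUSG00000075304, chr2:70474923-70477729, plus strand) stood at 29.9 and 114 FPKM at 0 h and at 0.191 and 0.207 FPKM at 12 h. The 0 h libraries differed several-fold from each other, and both 12 h libraries were near 0; the change was −5.64 ± 0.50 log2 units (SE; limma adjusted p = 5.6e-04). Trpm1, which encodes a cation channel known from retina and melanocytes, stood at 26.2 and 27.0 FPKM and then at 0.685 and 0.640 FPKM (−4.05 ± 0.27), one of the tightest of the falls. Nkx6-2, a homeobox gene, stood at 71.9 and 92.5 FPKM and then at 2.19 and 6.58 FPKM (−4.07 ± 0.58). Its 12 h libraries differed, and the call was lost without 12 h replicate 1 (adjusted p = 0.052, limma).

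The other falls among the 15 largest ran from −3.11 to −3.96 log2 units and came from genes of unlike function. Ly6g6e and Ly6g6d, neighbouring genes for small surface proteins, stood at 43.1 and 34.6 FPKM and at 22.8 and 15.7 FPKM at 0 h, and at 1.95 and 1.20 FPKM and 0.958 and 0.619 FPKM at 12 h. Their exons share 229 bases on opposite strands and the sources used here do not give strand use in counting, so their reads cannot be fully told apart. Mal, which encodes a membrane raft protein, stood at 15.1 and 13.6 FPKM and then at 0.173 and 0.287 FPKM. Pgc, the gene for the digestive enzyme precursor progastricsin, stood at 43.8 and 40.9 FPKM and then at 2.48 and 3.19 FPKM. For Mal and Pgc the replicates of each time lay close together. Pglyrp1, a peptidoglycan-binding protein gene, stood at 32.2 and 21.0 FPKM and then at 1.57 and 2.53 FPKM, and Serpinb1a, a protease inhibitor gene, at 25.8 and 11 FPKM and then at 1.20 and 0.971 FPKM. Ndufa4l2, related to a subunit of the respiratory chain, stood at 7.78 and 20.9 FPKM and then at 0.418 and 0.453 FPKM. Of the 15 falls 9 were called without each of the 4 libraries in turn; the exceptions were Nkx6-2, T, Ndufa4l2, Cdx1, Pglyrp1 (adjusted p = 0.080 without 12 h replicate 1) and Serpinb1a (0.050 without 12 h replicate 2). Ndufa4l2 was lost without 0 h replicate 2 (limma adjusted p = 0.062) and without either 12 h library (0.21 and 0.19).

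**Figure D2:**
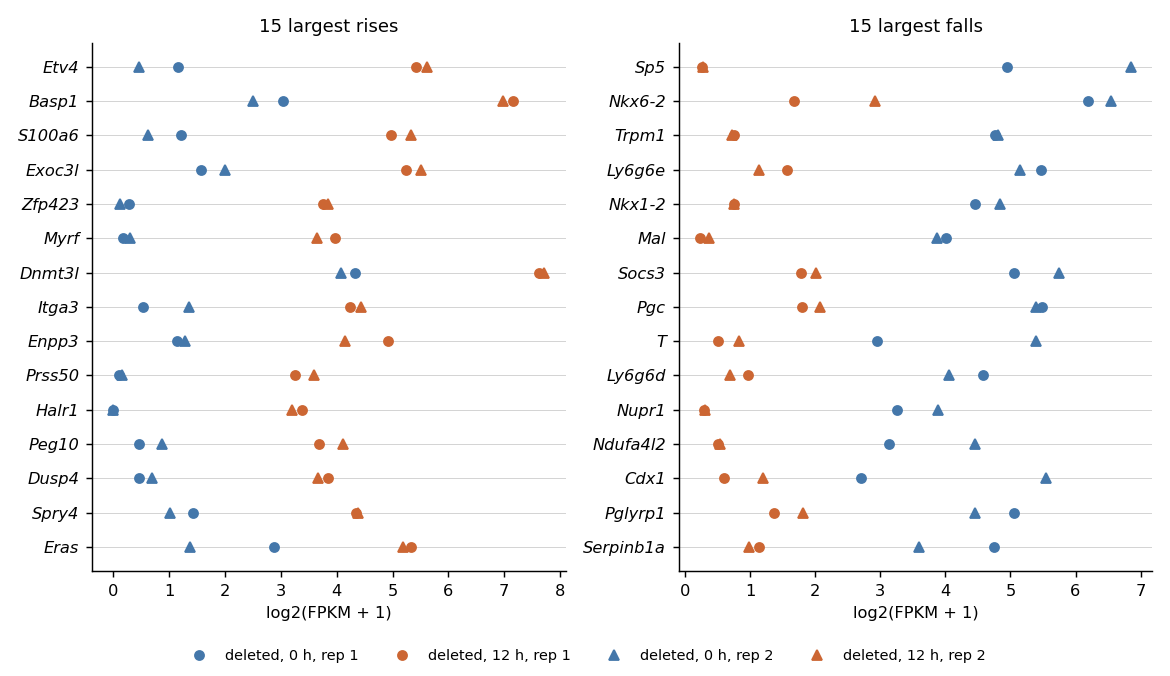
Level of the 15 genes with the largest rises (left) and the 15 with the largest falls (right) in each library of the deleted line, as log2(FPKM + 1), at 0 h and 12 h, with circles for replicate 1 and triangles for replicate 2. Every gene keeps its 0 h points on one side of its 12 h points, which the rule that chose the genes requires. T and Cdx1 show the widest gap between the 2 libraries of 0 h.

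Several of the rises came from genes that answer to ERK signalling. Of 19 measured ERK feedback and target genes 8 rose and 1 fell, and their median change was 0.90 log2 units; the shares over all genes were 3.55% and 3.45%. Spry4, a feedback inhibitor of receptor signalling, stood at 1.68 and 1.03 FPKM at 0 h and at 19.4 and 19.8 FPKM at 12 h (3.15 ± 0.26; limma adjusted p = 3.7e-04). The phosphatase genes that switch ERK off rose too: Dusp4 stood at 0.366 and 0.623 FPKM and then at 13.3 and 11.7 FPKM (3.18), and Dusp6 at 7.74 and 3.44 FPKM and then at 46.9 and 39.8 FPKM (2.83). Myc, the growth regulator, stood at 3.95 and 2.80 FPKM and then at 26.6 and 20.6 FPKM (2.49). For each of these genes the lower 12 h library was several times the higher 0 h library. Phlda1, a pleckstrin-domain gene, rose by 2.81, the ETS factor gene Etv1 by 2.42 and the feedback inhibitor gene Spred1 by 0.73. Dusp1, a phosphatase gene of the immediate early class, fell from 17.4 and 29.3 FPKM to 8.57 and 7.86 FPKM (−1.36).

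Within the ERK group the family members did not all pass. Etv5, the relative of Etv4, stood at 46.1 and 70.1 FPKM and then at 106 and 97.2 FPKM (0.82, limma adjusted p = 0.067), a higher level at each time than that of Etv4. Spry2 stood at 29.6 and 37.6 FPKM and then at 28.5 and 29.9 FPKM (−0.19), and Spry1 changed by 0.62 without a call. The calls of Etv4, Spry4, Dusp4, Dusp6, Myc, Phlda1 and Etv1 held without each of the 4 libraries in turn. That of Spred1 was lost without 0 h replicate 1 (limma adjusted p = 0.057) or either 12 h library (0.22 and 0.19), and that of Dusp1 without 0 h replicate 2 (0.062) or either 12 h library (0.20 and 0.23). Phlda1 shares 33.0% of its exon bases with an antisense gene. Among the 8 measured immediate early genes only Srf, which encodes serum response factor, passed (5.78 and 11.1 FPKM, then 24.1 and 22.4 FPKM; 1.42), and that call was lost without 0 h replicate 1 (limma adjusted p = 0.13) or either 12 h library (0.23 and 0.18). Fos, Jun and Egr1 changed by −0.65, −0.05 and 0.69 with no call, and Egr1 stood at 0.0249 and 1.93 FPKM in the 2 libraries of 0 h. Of 7 measured FGF ligand and receptor genes 0 were called (limma; 1 fell without 0 h replicate 1 and 2 rose without replicate 2), with a median of 0.65; Fgf4, the main FGF ligand of naive cells, stood at 65.8 and 91.1 FPKM and then at 119 and 111 FPKM (0.56), and Fgfr1 at 5.96 and 12.5 FPKM and then at 14 and 17.3 FPKM (0.77).

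**Figure D3:**
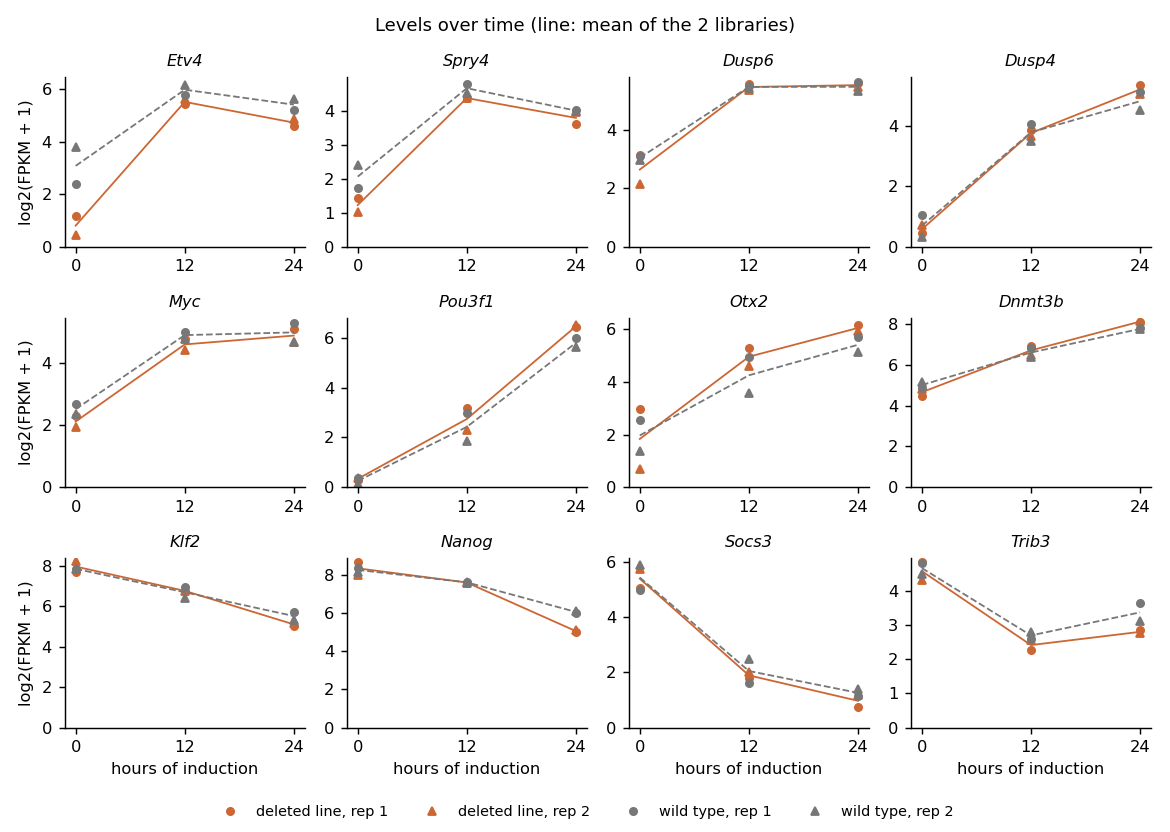
Levels of 12 genes over 0, 12 and 24 h of induction as log2(FPKM + 1) in the deleted line (solid) and in wild type (dashed), with circles for replicate 1, triangles for replicate 2 and lines through the means of the 2 libraries. By their means in the deleted line, Etv4 and Spry4 stand highest at 12 h, Pou3f1, Otx2, Dnmt3b and Dusp4 are higher again at 24 h, and Klf2, Nanog and Socs3 step down at each time.

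Most of the formative epiblast genes examined rose, where 3.55% of all genes rose and 3.45% fell. Of 15 measured formative genes 10 rose and 0 fell, with a median of 1.63 log2 units (1.79 without 0 h replicate 1, where 7 were called). Foxd3, a forkhead factor gene, stood at 10.9 and 14.1 FPKM at 0 h and at 75.5 and 67.8 FPKM at 12 h (2.44 ± 0.27; limma adjusted p = 0.0013). Grhl2, which encodes a regulator of epithelial enhancers, stood at 0.648 and 1.42 FPKM and then at 11.8 and 8.88 FPKM (2.49 ± 0.25). Sox4, an HMG-box factor gene, stood at 1.32 and 1.77 FPKM and then at 10.4 and 7.28 FPKM (1.94). These 3 calls held without each of the 4 libraries; Sox4 shares 54.6% of its exon bases with an antisense gene. Pou3f1, which encodes the POU factor Oct6, began near 0 (0.232 and 0.281 FPKM) and reached 7.94 and 3.96 FPKM (2.41). Otx2, the homeobox factor that steers the exit from the naive state, had 0 h libraries far apart (6.89 and 0.603 FPKM) and stood at 38.2 and 23.7 FPKM at 12 h (3.13 ± 0.73). The zinc finger genes Zic2, Zic5 and Sall2 rose by 1.92, 1.63 and 1.71, and the Sox genes Sox3 and Sox11 by 1.60 and 1.38.

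Fgf5 and Fgf15, ligand genes used as markers of the later epiblast, were not called. Fgf5 stood at 0.178 and 0.0228 FPKM at 0 h and at 0.641 and 0.232 FPKM at 12 h, and Fgf15 at 0.0365 and 0.149 FPKM and then at 0.944 and 0.498 FPKM. Both were thus under 1 FPKM in all 4 libraries. The WNT effector gene Lef1 stood at 0.939 and 3.41 FPKM and then at 3.08 and 1.68 FPKM, with overlapping libraries. Without 0 h replicate 1 the calls of Zic2, Zic5 and Sall2 were lost (limma adjusted p = 0.053, 0.055 and 0.095), and that of Zic5 also without 0 h replicate 2 (0.051). Without 12 h replicate 1, Pou3f1, Otx2, Sox3, Sox11, Zic2, Zic5 and Sall2 were lost (limma adjusted p = 0.069 to 0.27), and without 12 h replicate 2 the same genes but Pou3f1 and Sox11 (0.062 to 0.14).

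Factors shared by naive and formative cells rose or were not called, and the naive factors were divided. Of 14 general pluripotency genes 6 rose and 0 fell (median 1.00), beside 3.55% and 3.45% of all genes. Utf1, a chromatin-associated factor gene, stood at 108 and 75.9 FPKM at 0 h and at 571 and 521 FPKM at 12 h (2.58 ± 0.26; limma adjusted p = 9.2e-04). Its call held without each of the 4 libraries, and its replicates lay close together at 12 h. Dppa2, Zfp281, Lin28a and Dppa4, genes for chromatin or RNA-binding regulators, rose by 2.01, 1.48, 1.23 and 1.23, and these 4 were lost without 12 h replicate 1 (limma adjusted p = 0.071 to 0.14), as all but Dppa2 were without 12 h replicate 2 (0.056 to 0.083). Pou5f1 stood at 1111 and 535 FPKM and then at 734 and 667 FPKM (−0.14), and Sox2 at 231 and 306 FPKM and then at 336 and 335 FPKM (0.34); neither core factor was called.

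Of 20 naive factors 3 fell, 1 rose and 16 were not called (median −0.30; −0.56 and −0.24 without 0 h replicate 1 and 2, where 6 fell and 1 rose and where 6 fell and 5 rose). Over all genes 3.45% fell and 3.55% rose. Klf2, a Kruppel-like factor gene, stood at 205 and 296 FPKM and then at 107 and 106 FPKM (−1.20 ± 0.25; limma adjusted p = 0.022). Dppa3, which guards imprints in the early embryo, stood at 26.0 and 52.8 FPKM and then at 10.1 and 14.6 FPKM (−1.54), and Spic, an ETS factor gene, at 6.85 and 2.39 FPKM and then at 0.272 and 0.283 FPKM (−2.01). Each of these 3 falls was lost without either 12 h library (limma adjusted p = 0.079 to 0.20). Nr0b1, which encodes the orphan receptor Dax1, went the other way, from 50.3 and 39.7 FPKM to 186 and 158 FPKM (1.91 ± 0.29), and was lost without 12 h replicate 1 (limma adjusted p = 0.071). Nanog stood at 418 and 255 FPKM and then at 191 and 197 FPKM (−0.75, limma adjusted p = 0.10), and Klf4 at 71.9 and 188 FPKM and then at 36.5 and 46.2 FPKM (−1.48, adjusted p = 0.13). Their 12 h libraries lay below both 0 h libraries, while Esrrb (49.5 and 128 FPKM, then 72.9 and 83.8 FPKM) and Zfp42 (731 and 257 FPKM, then 449 and 404 FPKM) overlapped between the times.

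The enzymes that write new DNA methylation were among the clearest rises, where 3.55% of all genes rose. Dnmt3l, which encodes the inactive partner of the de novo methyltransferases, stood at 19.14 and 15.9 FPKM at 0 h and at 197 and 209 FPKM at 12 h (3.47 ± 0.37 log2 units; limma adjusted p = 0.0013). Dnmt3b stood at 21.6 and 27.4 FPKM and then at 121 and 89.9 FPKM (2.06 ± 0.23). Dnmt3a stood at 1.12 and 2.19 FPKM and then at 13.7 and 8.79 FPKM (2.21 ± 0.54). All 3 rose without overlap, but only the calls of Dnmt3l and Dnmt3b held without each of the 4 libraries; Dnmt3a was lost without 0 h replicate 1 (limma adjusted p = 0.13) and without either 12 h library (0.27 and 0.13). The maintenance genes Dnmt1 and Uhrf1 and the demethylation genes Tet1, Tet2 and Tdg were not called, which leaves 3 of 8 measured members of the list rising (median 1.19; 0.67 and 1.81 without 0 h replicate 1 and 2, where 2 and 7 rose). Tet1 stood at 5.22 and 15.1 FPKM and then at 22.5 and 27.2 FPKM (1.36, limma adjusted p = 0.15). Of 11 germline genes, a class known to be silenced by DNA methylation, 1 rose and 0 fell (median 0.54), beside 3.55% and 3.45% of all genes. That gene, Ddx4, an RNA helicase gene, stood at 1.14 and 0.679 FPKM and then at 3.49 and 2.78 FPKM (1.12), and was lost without either 12 h library (limma adjusted p = 0.17 and 0.088).

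Polycomb and imprinted genes held a few called members, where 3.55% of all genes rose and 3.45% fell. Of 14 polycomb genes 2 rose and 1 fell (median 0.11; 0.062 and 0.37 without 0 h replicate 1 and 2). Jarid2, a cofactor of the methylating complex PRC2, stood at 9.13 and 18.5 FPKM and then at 53.5 and 58.9 FPKM (2.02), and Kdm2b, which brings a PRC1 complex to CpG islands, at 6.12 and 11.3 FPKM and then at 34.9 and 31.0 FPKM (1.86). Pcgf1, which encodes a subunit of the complex that Kdm2b recruits, stood at 16.2 and 15.6 FPKM and then at 6.91 and 6.47 FPKM (−1.13), so members of one complex were called in opposite directions. The 3 calls were lost without either 12 h library (limma adjusted p = 0.052 to 0.095). The enzyme gene Ezh2 stood at 21.6 and 24.2 FPKM and then at 23.0 and 20.9 FPKM, with no call. Of 15 imprinted genes 2 rose and 0 fell (median 0.20; 0.31 and 0.65 without 0 h replicate 1 and 2). Peg10, a retrotransposon-derived gene expressed from the paternal allele, stood at 0.368 and 0.837 FPKM and then at 11.9 and 16.3 FPKM (3.24 ± 0.44), and held without each of the 4 libraries. Snrpn, a splicing protein gene, rose by 1.29 and was lost without either 12 h library (limma adjusted p = 0.20 and 0.14); it shares 27.3% of its exon bases with an overlapping gene model.

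Surface and cytoskeletal genes changed at selected members, where 3.55% of all genes rose and 3.45% fell. Of 8 measured integrin genes 4 rose and 0 fell (median 0.52; 0.45 and 0.83 without 0 h replicate 1 and 2), all of them alpha subunits. Itga3, a laminin receptor subunit, stood at 0.449 and 1.54 FPKM at 0 h and at 17.9 and 20.7 FPKM at 12 h (3.40 ± 0.35; limma adjusted p = 0.0010). Itga5, the alpha subunit of the main fibronectin receptor, stood at 1.09 and 2.61 FPKM and then at 10.4 and 10.9 FPKM (2.08). Itga6 rose by 0.90, and Itga1, a collagen receptor subunit, rose by 1.29 from under 0.02 FPKM to 1.57 and 1.39 FPKM. Their common partner gene Itgb1 stood at 30.2 and 29.1 FPKM and then at 34.7 and 30.2 FPKM (0.12, not called). The call of Itga3 held without each of the 4 libraries; Itga5 and Itga6 were lost without either 12 h library and Itga1 without replicate 1 (limma adjusted p = 0.064 to 0.15).

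Of 18 epithelial junction genes 4 rose and 2 fell (median 0.12; 0.20 and 0.26 without 0 h replicate 1 and 2). The shares over all genes were 3.55% and 3.45%. Esrp1, a splicing regulator of epithelial cells, stood at 0.637 and 0.740 FPKM and then at 8.73 and 5.0 FPKM (2.18). Cldn6 stood at 5.33 and 7.03 FPKM and then at 19.6 and 20.9 FPKM (1.57), whereas the claudin genes Cldn7 (4.81 and 5.29 FPKM, then 0.988 and 1.08 FPKM; −1.57) and Cldn4 (91.4 and 79.1 FPKM, then 43.7 and 47.1 FPKM; −0.89) fell. Claudins, which seal tight junctions, thus moved both ways. The desmosome gene Pkp2 rose by 1.02, and the adhesion gene Cdh1 stood at 106 and 126 FPKM and then at 129 and 106 FPKM. Without 0 h replicate 1 the calls of Pkp2 (change 0.80) and Cldn7 (−1.63) were lost. Without 12 h replicate 1 those of Esrp1, Cldn6, Cldn7, Cldn4 and Pkp2 were lost. Without 12 h replicate 2 the same genes but Esrp1 were lost (changes of 1.53, −1.60, −0.94 and 1.14). Of 13 matrix genes 0 were called (limma; without 0 h replicate 1, 1 rose and 1 fell, and without replicate 2, 4 rose); Lama1 stood at 4.83 and 39.9 FPKM at 0 h, so its change of −2.17 ± 0.80 had wide error.

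Among 19 actin, SRF and YAP target genes 2 rose and 0 fell (median 0.41; 0.23 and 0.60 without 0 h replicate 1 and 2). The shares over all genes were 3.55% and 3.45%. Ctgf, a secreted target of YAP, stood at 1.44 and 4.42 FPKM and then at 14.9 and 19.2 FPKM (2.30), and its relative Cyr61 at 1.44 and 3.58 FPKM and then at 11.2 and 13.4 FPKM (1.99, limma adjusted p = 0.11). Lats2, the kinase gene that restrains YAP, rose by 1.20. It shares 42.4% of its exon bases with another gene model, and Ctgf shares 23.2% with one on the opposite strand. Both calls were lost without either 12 h library (limma adjusted p = 0.051 to 0.19), and that of Ctgf also without 0 h replicate 1 (0.11). The S100 and annexin genes, a class of calcium-dependent membrane binders, went in both directions: S100a6 and Anxa3 rose and Anxa4 and Anxa7 fell among 13 (median 0.11). Anxa3 stood at 0.704 and 0.344 FPKM and then at 5.39 and 4.86 FPKM (2.02), and Anxa4 at 16.2 and 16.7 FPKM and then at 6.93 and 5.36 FPKM (−1.30). These calls held without each of the 4 libraries, except that of Anxa7 (−1.32), lost without either 12 h library (limma adjusted p = 0.095 and 0.074).

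**Figure D4:**
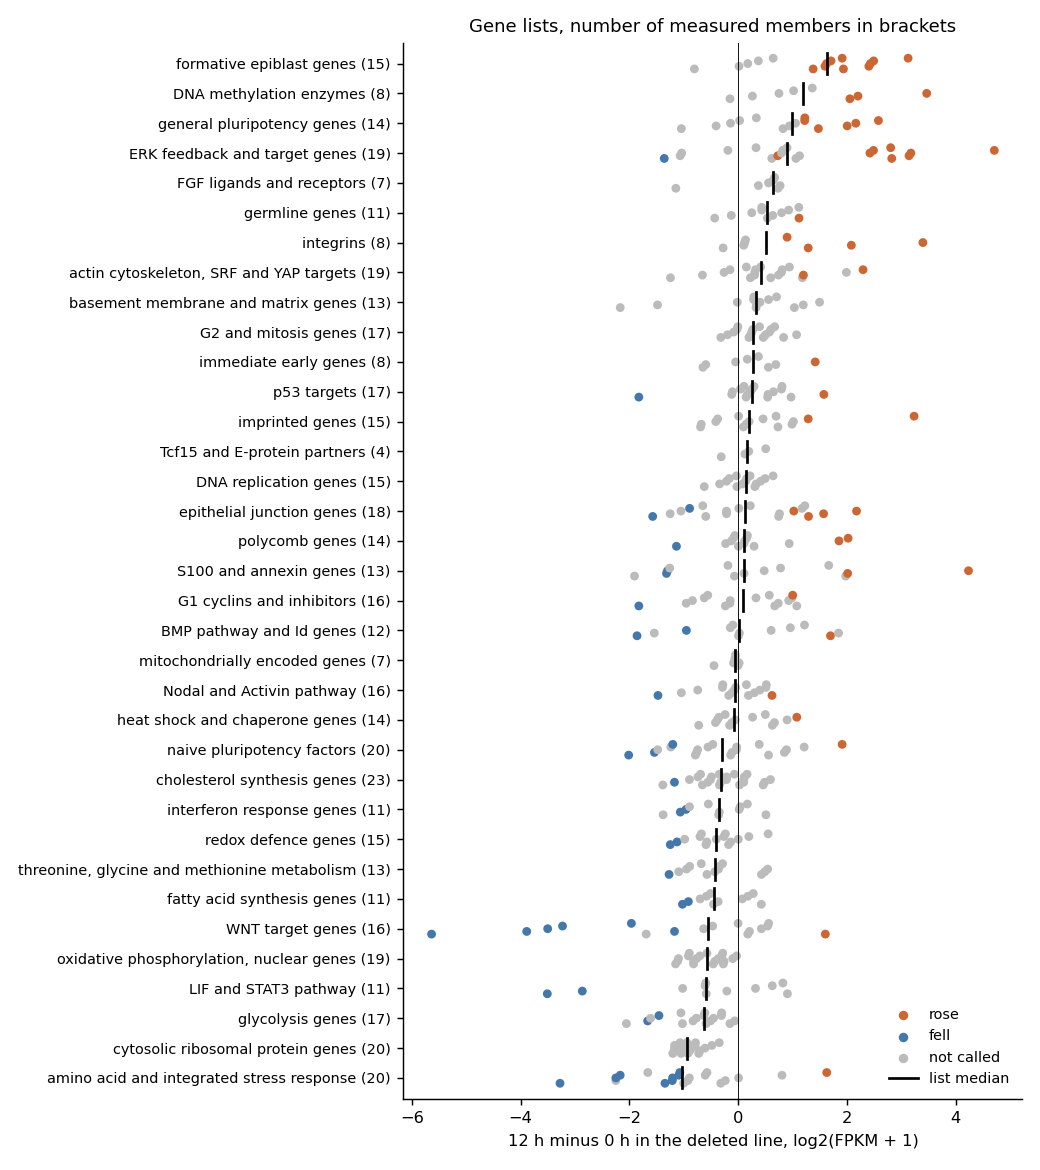
Change from 0 h to 12 h in the deleted line, as log2(FPKM + 1), for every measured member of 35 gene lists ordered by their median (black bars), coloured by whether the member rose, fell or was not called; some genes are in more than 1 list. The formative, DNA methylation, general pluripotency and ERK lists have the highest medians, and the amino acid and integrated stress response, ribosomal protein and glycolysis lists the lowest.

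WNT target genes gave several of the deepest falls, where 3.45% of all genes fell and 3.55% rose. Of 16 measured members 6 fell and 1 rose (median −0.55; −0.79 and −0.13 without 0 h replicate 1 and 2, where 8 and 6 fell). The promoter windows below, from RefSeq (GRCm38.p6, 250 bases before to 50 after each gene's start), are shown because they hold the TCF/LEF letters CTTTGAA or CTTTGAT, searched on both strands and here in capitals; each is the match with 11 bases on either side, 5′ to 3′ on the gene's strand.
Sp5 (chr2:70474808-70474836, plus strand): ggcaaggccccCTTTGATcaggaaaatcc
T (chr17:8434177-8434205, plus strand): ctgctcggtacTTCAAAGggtgtcccgcc
Dkk1 (chr19:30549596-30549624, minus strand): tcctcccaaagCTTTGAAatcccatcccg
Such letters were found in 4 of the 18 promoters that 12 members have in the table, and in 8.65% of all 32851 promoters. The 4 were those of these 3 genes and of Tnfrsf19, which was not called. Of the 6 called members with a promoter, 3 held the letters. A match is a description of the letters, not a site shown to be bound, and the motif was chosen after the changes were seen.

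Nkx1-2, a homeobox gene of the posterior embryo, stood at 21.0 and 27.5 FPKM at 0 h and at 0.688 and 0.689 FPKM at 12 h (−3.89 ± 0.29; limma adjusted p = 3.3e-04). T, which encodes Brachyury, stood at 6.74 and 40.9 FPKM and then at 0.416 and 0.783 FPKM (−3.50 ± 0.63), and Cdx1, a caudal homeobox gene, at 5.48 and 45.7 FPKM and then at 0.504 and 1.28 FPKM (−3.23 ± 0.81). The 0 h libraries of T and Cdx1 lay several-fold apart, with replicate 1 lower as for Sp5, while the 12 h libraries were low in all cases. Cdx2 stood at 2.47 and 4.23 FPKM and then was listed at 0 and at 0.193 FPKM. Dkk1, a secreted WNT inhibitor gene, stood at 1.84 and 1.17 FPKM and then at 0.0331 and 0.179 FPKM (−1.17). Tcf7l1, which encodes a repressor of WNT targets in stem cells, rose from 14.5 and 24.5 FPKM to 61.0 and 57.9 FPKM (1.60). Axin2, the feedback gene of the pathway, stood at 13.6 and 42.4 FPKM and then at 6.91 and 6.71 FPKM (−1.69, limma adjusted p = 0.070). The calls of Sp5 and Nkx1-2 held without each of the 4 libraries. Those of T, Cdx1, Dkk1 and Tcf7l1 were lost without either 12 h library (limma adjusted p = 0.058 to 0.27) and that of Cdx2 without 12 h replicate 1 (0.063).

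Socs3 and Bcl3 of the LIF and STAT3 list fell, where 3.45% of all genes fell, and the receptor genes were not called. Socs3, the feedback inhibitor of STAT3, stood at 32.4 and 52.6 FPKM at 0 h and at 2.44 and 3.01 FPKM at 12 h (−3.51 ± 0.39; limma adjusted p = 0.0014). Bcl3, a partner of NF-kappaB and a STAT3 target in stem cells, stood at 16.8 and 28.0 FPKM and then at 2.17 and 2.05 FPKM (−2.87 ± 0.34). Both calls held without each of the 4 libraries, and these were the only called members of 11 (median −0.59; −0.34 and −0.21 without 0 h replicate 1 and 2, where 5 fell and where 4 rose and 2 fell). Stat3 itself stood at 6.60 and 13.8 FPKM and then at 4.16 and 4.29 FPKM (−1.02, limma adjusted p = 0.086). The receptor genes Lifr (0.91) and Il6st (−0.61) and the kinase gene Jak1 (0.82) were not called, with values on either side of 0.

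Genes of Nodal and BMP signalling were called in both directions, beside shares over all genes of 3.55% rising and 3.45% falling. Of 16 Nodal and Activin pathway genes 1 rose and 1 fell (median −0.06; −0.0087 and 0.04 without 0 h replicate 1 and 2): Foxh1, the DNA-binding partner of SMADs, stood at 32.5 and 33.6 FPKM and then at 53.3 and 49.7 FPKM (0.62), and Fst, the Activin antagonist follistatin, at 15.7 and 14.6 FPKM and then at 4.84 and 4.81 FPKM (−1.47). The Nodal target genes Lefty1 and Lefty2 had SEs of 1.14 and 0.99 log2 units, so their changes could not be resolved. Of 12 BMP pathway and Id genes 1 rose and 2 fell (median 0.02; 0.22 and 0.16 without 0 h replicate 1 and 2). Id1 stood at 1.63 and 1.57 FPKM and then at 6.57 and 8.44 FPKM (1.70), and Id4 at 15.9 and 24.1 FPKM and then at 4.11 and 5.33 FPKM (−1.86). The Id genes, which encode inhibitors of E-protein pairing, were thus called in opposite directions; Id2 (1.85, limma adjusted p = 0.068) and Id3 (1.22) were not called. Smad9, a BMP-responsive SMAD gene, fell by 0.95. The E-protein genes Tcf3, Tcf4 and Tcf12 changed by 0.20, 0.13 and 0.51 with no call. Id4 held without each of the 4 libraries; Foxh1, Fst, Id1 and Smad9 were lost without either 12 h library (limma adjusted p = 0.062 to 0.30), and Foxh1 and Smad9 also without 0 h replicate 1 (0.062 and 0.052).

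Genes of amino acid supply and the integrated stress response, which ATF4 drives when amino acids or protein folding fall short, made up the list with the lowest median of the 35, marker lists aside. Of 20 measured members 8 fell and 1 rose (median −1.04), beside 3.45% and 3.55% of all genes. The median was −1.06 and −0.95 without 0 h replicate 1 and 2. Without replicate 2 the ribosomal protein list (−1.58) and the nuclear oxidative phosphorylation list (−0.99) had lower medians. The windows below are shown because they hold the ATF4-type letters TGATGNAA, searched on both strands and here in capitals, with 11 bases on either side, taken and written as for the WNT genes.
Chac1 (chr2:119351038-119351067, plus strand): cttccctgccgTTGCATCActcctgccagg
Asns (chr6:7693214-7693243, minus strand): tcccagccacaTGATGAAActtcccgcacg
Nupr1 (chr7:126625562-126625591, minus strand): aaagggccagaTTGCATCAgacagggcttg
The letters were found in 4 of the 20 promoters that 18 members have in the table, those of these 3 and of Trib3, and in 3.97% of all 32851 promoters; all 4 genes fell. This motif too was chosen after the changes were seen, and a match is no shown site.

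Nupr1, which encodes a stress-induced nuclear protein, stood at 8.52 and 13.9 FPKM at 0 h and at 0.223 and 0.231 FPKM at 12 h (−3.28 ± 0.38; limma adjusted p = 0.0016). Trib3, a pseudokinase gene that dampens the response, stood at 27.7 and 19 FPKM and then at 3.85 and 4.88 FPKM (−2.17 ± 0.25). The calls of Nupr1 and Trib3 held without each of the 4 libraries. Chac1, a glutathione-degrading enzyme gene, stood at 5.58 and 6.78 FPKM and then at 0.441 and 0.576 FPKM (−2.25), and Atf4 itself at 245 and 162 FPKM and then at 85.4 and 70.6 FPKM (−1.34). Asns, the asparagine synthetase gene, stood at 318 and 409 FPKM and then at 163 and 175 FPKM (−1.09). In each of these genes the higher 12 h library was below the lower 0 h library. Mthfd2, Aldh18a1 and Ddit3 fell by 1.21, 1.21 and 1.07, and the arginine and lysine carrier gene Slc7a3 rose from 62.2 and 25.3 FPKM to 137 and 114 FPKM (1.63). Psat1 and Phgdh, of serine synthesis, had 0 h libraries far apart (326 and 108 FPKM, and 100 and 47.8 FPKM) and were not called (−2.25 and −1.66). Chac1 and Ddit3 were lost without 0 h replicate 1 (limma adjusted p = 0.075 and 0.12) and Slc7a3 without 0 h replicate 2 (0.053). These 3 and Atf4, Asns, Mthfd2 and Aldh18a1 were lost without either 12 h library (limma adjusted p = 0.078 to 0.27).

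All 17 glycolysis genes had a change below 0, with a median of −0.63 log2 units, but only 2 fell, beside 3.45% of all genes. Aldoa, the aldolase gene, stood at 674 and 633 FPKM at 0 h and at 236 and 239 FPKM at 12 h (−1.46 ± 0.33; limma adjusted p = 0.030), and Tpi1, the triose phosphate isomerase gene, at 233 and 216 FPKM and then at 73.5 and 66.9 FPKM (−1.66 ± 0.42). Ldha, the lactate dehydrogenase gene, stood at 830 and 505 FPKM and then at 156 and 154 FPKM (−2.06, limma adjusted p = 0.070). The 12 h libraries of these 3 genes were close together and below both 0 h libraries. The calls of Aldoa and Tpi1 were lost without 0 h replicate 1 (limma adjusted p = 0.069 and 0.11) or either 12 h library (0.17 to 0.24), and the list median was −1.0 and −0.46 without 0 h replicate 1 and 2, with 4 falls in each.

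Lipid, one-carbon and redox lists held 1 or 2 called members each, all of them falls, while 3.45% of all genes fell. Of 23 cholesterol synthesis genes only the sterol reductase gene Tm7sf2 fell (6.30 and 5.77 FPKM, then 2.40 and 1.87 FPKM; −1.17; lost without 12 h replicate 2, limma adjusted p = 0.078), and of 11 fatty acid synthesis genes Acsl3 and Me1 fell by 1.02 and 0.91. Gcat, which breaks down threonine to glycine, stood at 65.9 and 51.2 FPKM and then at 24.3 and 22.8 FPKM (−1.27), and Tdh, which acts just before it, at 531 and 398 FPKM and then at 256 and 240 FPKM (−0.89, limma adjusted p = 0.24). Gcat was the only called member of its list of 13 and shares 47.5% of its exon bases with another gene model on the same strand. The metallothionein gene Mt1 stood at 810 and 853 FPKM and then at 340 and 359 FPKM (−1.25), and the mitochondrial superoxide dismutase gene Sod2 at 63.4 and 64.3 FPKM and then at 27.9 and 29.7 FPKM (−1.12), the 2 called members of 15 redox defence genes. In both of these genes the replicates of each time were nearly equal. Gcat, Mt1, Sod2, Acsl3 and Me1 were lost without either 12 h library (limma adjusted p = 0.053 to 0.28), and Acsl3 and Me1 also without 0 h replicate 1 (0.11 and 0.098).

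Cell cycle lists held few calls, where 7.00% of all genes were called in either direction. Of 15 DNA replication genes and 17 genes of G2 and mitosis 0 were called (limma, also 0 without 0 h replicate 1), with medians of 0.14 and 0.27. Without 0 h replicate 2, 5 rose and 2 fell among the replication genes (median 0.0082; 0.22 without replicate 1) and 7 rose and 1 fell among those of G2 and mitosis. Cdkn1a, the gene of the p21 inhibitor and a target of p53, stood at 70.5 and 155 FPKM at 0 h and at 26.7 and 31.0 FPKM at 12 h (−1.83 ± 0.44; limma adjusted p = 0.039). Pmaip1, the p53 target gene Noxa, stood at 0.758 and 1.44 FPKM and then at 5.25 and 5.13 FPKM (1.58), so the 2 called members of 17 p53 targets went in opposite directions. Mdm2 stood at 39.2 and 25.8 FPKM and then at 36.0 and 38.8 FPKM, with overlapping libraries. Among 16 G1 genes E2f2 rose by 1.00 and Cdkn1a fell. Without either 12 h library these 3 calls were lost (limma adjusted p = 0.080 to 0.23), as were those of Cdkn1a without 0 h replicate 2 (0.056) and Pmaip1 without 0 h replicate 1 (0.092). Of 14 heat shock genes Hsph1 rose by 1.08, and of 11 interferon response genes B2m and Irf9 fell by 1.06 and 0.96; each of the 3 was lost without either 12 h library (limma adjusted p = 0.077 to 0.18).

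The lists of the translation and respiration machinery moved with the 0 h library that stood apart. All 20 ribosomal protein genes were below 0, with a median of −0.93 log2 units, and 0 were called by limma. The median was −1.54 in the replicate 1 libraries, −0.31 in the replicate 2 libraries and −0.28 and −1.58 without 0 h replicate 1 and 2, where 0 and 19 fell. All 19 nuclear genes of oxidative phosphorylation were below 0 as well (median −0.57, 0 called; −0.98 in replicate 1, −0.17 in replicate 2, and −0.16 and −0.99 without 0 h replicate 1 and 2, where 0 and 13 fell). Rpl13a, for example, stood at 8661 and 2497 FPKM at 0 h and at 2182 and 1871 FPKM at 12 h. Most of the difference lay in 0 h replicate 1, and the part of that library's make-up in the medians was not tested beyond leaving it out. The 7 measured mitochondrially encoded genes, which are high in replicate 2 at both times, had a median of −0.05, −1.26 and 1.00 without 0 h replicate 1 and 2, SEs of 1.18 to 1.39 and 0 calls by limma in each of these fits.

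Markers of endoderm and of the 2-cell stage were near 0, and the other marker lists held some expressed members. None of 12 endoderm markers and 8 markers of the 2-cell stage passed the filter on low values, and their summed levels were 0.506 to 2.23 FPKM and 0 to 0.268 FPKM per library. Of 11 streak and mesoderm markers 3 were measured, and their list summed to 10.6 and 46.3 FPKM at 0 h and 4.08 and 4.50 FPKM at 12 h, mostly T. Fibroblast markers summed to 22.2 and 53.4 FPKM and then to 15.3 and 19.5 FPKM, almost all from Fbln1 (19.2 and 49.9 FPKM, then 11.5 and 12.3 FPKM), while the defining collagen genes Col1a1 and Col3a1 stayed under 0.5 FPKM and Dcn was listed at 0. Trophoblast markers summed to 27.3 and 43.6 FPKM and then to 32.8 and 43.4 FPKM, and among them Tfap2c (10.9 and 15.5 FPKM, then 1.83 and 3.27 FPKM; −2.01) and Cdx2 fell. Germ cell markers summed to 57.6 and 101 FPKM and then to 35 and 32 FPKM; Kit, the receptor gene of stem cell factor (20.1 and 37.5 FPKM, then 3.75 and 4.76 FPKM; −2.44), Dppa3 and Prdm1 (−1.03) fell and Ddx4 rose. Neural markers (3 of 10 measured) and markers of endothelium and blood (2 of 9) had 0 calls by limma. Tfap2c and Kit were lost without 12 h replicate 1 (limma adjusted p = 0.091 and 0.071) and Prdm1 without either 12 h library (0.14 and 0.21). In bulk samples fewer cells of a type and less RNA per cell cannot be told apart.

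The change of wild-type cells over the same 12 h shares no library with that of the deleted line. The 2 changes are still not fully independent, since 1 spread from all 12 libraries served both. The replicate deviations of the 2 genotypes at 0 h also correlated at 0.70. Both 0 h replicate 1 libraries were high in ribosomal protein reads. The part of these in the agreement below was not tested. In wild type 298 genes rose and 265 fell (4.03% called, 2.13% rising and 1.90% falling), and 276 of the 497 rises and 244 of the 482 falls of the deleted line were called the same way there. The sign was the same in wild type for 495 of the 497 rises and 480 of the 482 falls, and for 86.8% of all genes tested. The 15 largest rises were all called in wild type, and 13 of the 15 largest falls were. These 30 genes were chosen for a large change in the deleted line, which favours a larger value there: 14 of the rises and 12 of the falls were larger in the deleted line. For 13 of the 15 rises and all 15 falls the 95% interval of the difference held 0, for example −1.72 to 1.48 for Sp5 and −0.90 to 1.09 for Dusp4. Such an interval still allows a difference of more than 1 log2 unit for many of them.

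The test of the difference itself called 0 genes (0.00%; limma, smallest adjusted p = 1), and at an unadjusted p under 0.05 it had 33 genes above and 53 below 0. A fit with voom weights also called 0. Etv4 had the largest difference among the 30 genes: its wild-type libraries stood at 4.17 and 12.8 FPKM at 0 h and at 54.2 and 71.1 FPKM at 12 h, above the deleted line at both times without overlap. The wild-type change was 2.90, and the difference was 1.81 (95% interval 0.46 to 3.17; limma unadjusted p = 0.014, adjusted p = 1). The gap between the lines was thus wider at 0 h than at 12 h on the log2 scale. Basp1 stood at 10.5 and 21.3 FPKM and then at 134 and 165 FPKM in wild type (3.22, difference 1.08, interval 0.10 to 2.06). Folr1, a folate receptor gene, stood at 7.52 and 8.08 FPKM and then at 54.5 and 55.1 FPKM in the deleted line (2.67 ± 0.16; limma adjusted p = 2.3e-04). In wild type it stood at 12.9 and 13.8 FPKM and then at 52.5 and 53.1 FPKM, so the lines met at 12 h from different 0 h levels (difference 0.76, interval 0.26 to 1.25; unadjusted p = 0.0073, adjusted p = 1). Among the 5 smallest p-values on the lower side, Tcf15 was the only gene that reached 6 FPKM in any library of the 2 lines at 0 h or 12 h; the others were Tpi-rs11, Mir199a-1, Hist1h4f and Mir6991. The other genes of the 5 smallest on the higher side, n-R5s39, Rn7s1 and Mir6972, reached no more than 4.53 FPKM.

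**Figure D5:**
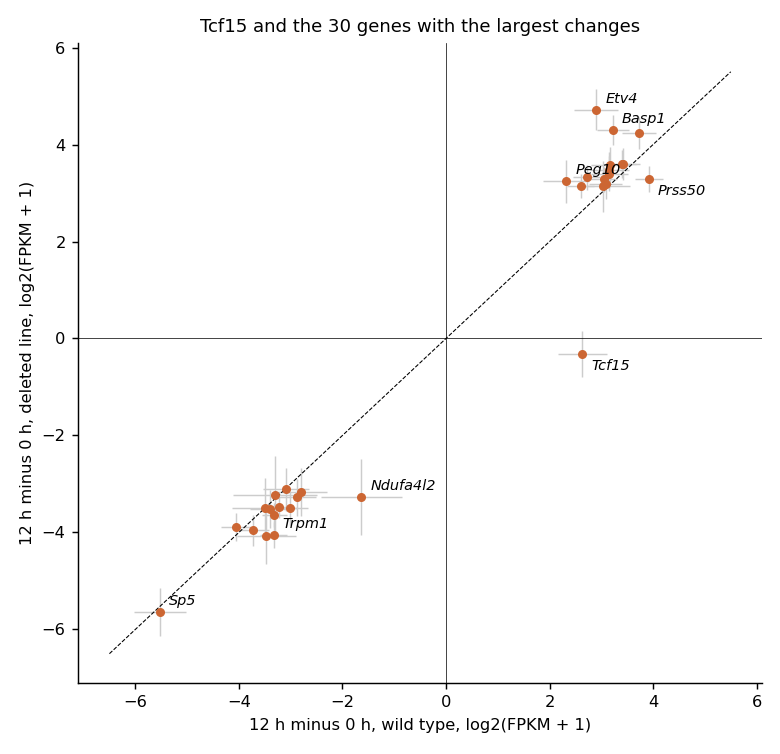
Change from 0 h to 12 h in wild type (x axis) and in the deleted line (y axis) for Tcf15 and the 30 genes with the largest changes in the deleted line, as log2(FPKM + 1), with bars of 1 SE from the shared model and the line of equal change dashed. Tcf15 lies far below the line, at 2.63 in wild type and −0.31 in the deleted line, Etv4 above it, and most others near it.

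The 24 h libraries of the deleted line show where the 12 h levels stood on the way. Of the 15 largest rises 9 had a higher mean at 24 h than at 12 h and 6 a lower one. Myrf stood at 33.5 FPKM at 24 h, Dusp4 at 35.8 FPKM and Enpp3 at 45.2 FPKM, all above their 12 h levels. Etv4 (25.6 FPKM), S100a6 (14.2 FPKM), Spry4 (12.9 FPKM) and Zfp423 (7.28 FPKM) stood below theirs. Of the 15 largest falls 13 were lower again at 24 h, such as Trpm1 at 0.102 FPKM and Pglyrp1 at 0.113 FPKM, and Nupr1 (0.554 FPKM) and Ndufa4l2 (0.760 FPKM) were higher. These 24 h values are means of 2 libraries, and no test between 12 h and 24 h was made here.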

How the data were processed

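RNA was sequenced in 12 libraries of the 6 groups of genotype and time. The authors deposited a table of FPKM values for 47729 genes. Build mm10, edgeR 3.16.5, featureCounts 1.5.1, STAR 2.5.2b and cutadapt are named, without their roles, in the submitters' processing notes. Neither the version of cutadapt nor strand use is given there.

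FPKM is not a count, so limma 3.58.1 (R 4.3.3) was fitted to log2(FPKM + 1) of the 13981 genes that reached 1 FPKM in 2 or more libraries. The fit had 1 mean for each of 6 groups, all 12 libraries, trended moderated variances (6 residual and 3.11 prior degrees of freedom) and no replicate block. P-values were 2-sided, adjusted by the Benjamini-Hochberg method over all genes of a contrast and called under 0.05; intervals of 95% use the moderated SE. Read counts were recovered from the steps between low values. With GENCODE M21 or fitted gene lengths, 100% of 28657 genes above 0 gave whole reads within 0.01 reads (80.1% with the annotated length). Libraries held 9740851 to 17571255 such reads (median 12189883), which gave the depth, the shares of reads and a fit with voom weights. The fit was tested on simulated data.

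The genes named are, by rule, Tcf15, the 15 largest rises and 15 largest falls among called genes with libraries apart, a mean of at least 5 FPKM at the higher time and no predicted symbol, the 5 smallest p-values each way for the difference between genotypes, and up to 4 called members of each list. All other called members of a list described, and members named as not called, were chosen after their values were seen. Some called members are counted in their lists but not reported here by name. The members, the 35 gene lists and 8 marker lists were chosen with earlier results of these data known. Alternatives were a pseudocount of 0.1, no filter on low values, quantile normalization, the 4 libraries of the comparison alone, a replicate block, voom weights and leaving out each library. All table columns were matched to samples. Figures were made in Python 3.11.15 with matplotlib 3.10.9.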

Additional observations from a re-analysis of the deposited data

How the results depend on the processing

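The 979 calls of the deleted line became 0 with its 4 libraries alone (no group but these 2 gives the spread), 1605 with the replicate block, 1118 with quantile normalization, 1009 with a pseudocount of 0.1, 726 without the filter and 1021 with voom weights; leaving out single libraries gave 173 (without 12 h replicate 1) to 4522 (without 0 h replicate 2, which leaves only the 0 h library that stood apart), with 202 without 12 h replicate 2 and 641 and 640 without the 24 h libraries of the line. With the block Psat1, Klf4, Lifr, Phgdh, Ldha, Id2, Cyr61, Fbln1, Lama1, Etv5 and Tet1, given above as not called, passed as well (limma adjusted p = 0.0054 to 0.0498), and Stat3 (0.0501), Axin2 (0.056) and Nanog (0.067) did not. All 979 calls were also made with the block, and 902 with voom weights. The labels name no batch shared by same-numbered libraries, so replicate numbers were not taken as a pairing in the main fit. Deviations of same-numbered libraries still correlated, from −0.066 to 0.70 over the 15 pairs of groups and at 0.30 between 0 h and 12 h of the deleted line. The −0.066, of the deleted line at 0 h with wild type at 12 h, was the only negative value, and the next lowest was 0.15. Every group also had a larger share of mitochondrial mRNA reads in replicate 2. Replicate numbers thus carried a common difference, which the fit without the block leaves in the spread. Its source was not tested. For wild type the 563 calls became 989 with the block and 130 to 1084 without single libraries. The difference between genotypes had 0 calls, 5 without the filter (Gm25579, Gm10549, Gm25970, Gm44467 and Gm44066, none above 1.27 FPKM), and 0 to 1 without single libraries (Mir199a-1 without deleted-line 0 h replicate 1, Mir6948 without its 12 h replicate 1). Of 91 called genes named by rule, 91 were lost with the 4 libraries alone, 16 without the filter, 6 with quantile normalization, 3 with voom weights, 2 with the pseudocount of 0.1, 54 and 46 without 12 h replicate 1 and 2, and 11 and 2 without 0 h replicate 1 and 2; no sign changed among them. The change of Tcf15, not called, was −0.31 and ran from −0.62 (without 0 h replicate 2) to 0.0032 (without 0 h replicate 1). Depth limits genes at or under about 0.1 FPKM, where 1 read per kilobase is worth 0.0569 to 0.111 FPKM.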
